A study of Mus musculus with 16 samples.

Results

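The 37 genes described here encode lysosomal hydrolases, lysosomal membrane proteins and subunits of the vacuolar proton pump (V-ATPase), together with Tfeb and Tfe3, transcription factors of lysosomal genes. They were selected by gene symbol, and the cathepsin proteases were left out as a family of their own, apart from Ctsa (cathepsin A), which is among the 37. Each of the 37 matched 1 of the 55573 gene records of the deposited table, and all 37 passed the filter on low counts, as did 13107 genes in all. Expression was measured by RNA sequencing of polyadenylated RNA in RAW264.7, a macrophage-like line from a mouse tumour that Abelson leukaemia virus induced. The libraries form 4 groups of 4, labelled ORP5/8 KD, ATP11A/C KD, CDC50A KD and Parental, where KD is a knockdown and Parental is the line with no construct named. ORP5 and ORP8 (genes Osbpl5 and Osbpl8) move phosphatidylserine out of the endoplasmic reticulum where it touches the plasma membrane. ATP11A is a flippase, which brings phosphatidylserine to the cytoplasmic side of a membrane, and CDC50A (gene Tmem30a) is the partner subunit that it and most related flippases need. The labels name no stimulus, and cells were harvested the day after they were plated. KD libraries have names that start with "sh" and Parental libraries names that start with "Ctrl", abbreviations left unexplained. No library with a control construct was used here, so effects of carrying any construct cannot be told apart from those of the knockdown. Neither clones nor separate cultures are named, and the p-values therefore reflect only how far these libraries differ, a spread that may be technical.

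Lysosomes are the acid compartments in which cells break down what they take up, and macrophages rely on them to digest the content of phagosomes. The V-ATPase pumps protons into the lumen: its V1 sector (A, B and H subunits among others) hydrolyses ATP outside, and its V0 sector (a, c and d subunits) carries the protons across the membrane. Soluble hydrolases need that acidity, and their membrane partners protect the wall, export products or release calcium. TFEB and TFE3 enter the nucleus when the kinase mTORC1 no longer phosphorylates them, and bind E-boxes with the letters CACGTG in promoters of lysosomal genes, the CLEAR element, whose palindromic middle is TCACGTGA. Their activity is set largely by where the protein is, so the level of their transcripts says little of it.

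Libraries held 24020891 to 41543050 expected counts each. No pair of libraries of a group agreed within sampling noise: the chi-square per degree of freedom was 43.6 between ATP11A/C KD 1 and 2 and between 4.72 and 24.9 for the other pairs. The targeted genes were checked first. Osbpl8 averaged 99.1 ± 8.17 CPM in ORP5/8 KD, 127 ± 8.99 CPM in ATP11A/C KD and 116 ± 4.41 CPM in CDC50A KD, against 337 ± 5.84 CPM in Parental (SD, n = 4 libraries a group), so it was low in every KD group, whichever gene the label names. Osbpl5 was below 1 CPM throughout, did not pass the filter and checks nothing. Atp11a averaged 53.3 ± 0.604 CPM in ORP5/8 KD, 21.4 ± 0.843 CPM in ATP11A/C KD and 43.1 ± 1.36 CPM in CDC50A KD, against 61.4 ± 1.91 CPM in Parental, and was lowest in the group labelled for it. Tmem30a averaged 130.5 ± 10.4 CPM in ORP5/8 KD, 142 ± 13.1 CPM in ATP11A/C KD and 127 ± 5.80 CPM in CDC50A KD, against 162 ± 4.83 CPM in Parental, a log2 fold change of -0.35 ± 0.0612 (adjusted p = 7.95e-05) in CDC50A KD, and the other KD groups were lower too (adjusted p = 0.000283 with ORP5/8 and 0.0196 with ATP11A/C). The KD groups are therefore named by their labels, and these counts show a clear loss in the group labelled for it for Osbpl8 and Atp11a. The levels of the proteins were not measured here.

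The letters that TFEB and TFE3 are known to bind could be looked up for 32 of the 37 genes, those with a RefSeq promoter window (250 bases before to 50 after the start, build GRCm38.p6). CACGTG, which reads the same on both strands, was present in 11 of these 32 windows (34.4%), against 12.0% of the 9279 tested genes that have a window and 7.15% of all 32851 windows. The longer TCACGTGA, which contains it, was present in 5 of 32 (15.6%), against 2.23% and 0.974% in the same order. Of 52 other lysosomal genes with a window, 9 (17.3%) held CACGTG and 6 held TCACGTGA. The stretches around the matches before the start are shown for the 11 genes, 5′ to 3′ on the gene's own strand, with CACGTG in capitals and 10 bases on either side. They are shown because the genes described below include both strong risers and strong fallers that carry these letters. A match is a description of the letters, not evidence of binding.
Lamp1 (chr8:13159090-13159161, plus strand): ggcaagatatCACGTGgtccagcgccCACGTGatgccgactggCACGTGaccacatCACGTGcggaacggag
Mcoln1 (chr8:3500438-3500489, plus strand): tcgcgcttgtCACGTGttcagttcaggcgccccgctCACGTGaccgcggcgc
Ctsa (chr2:164833751-164833776, plus strand): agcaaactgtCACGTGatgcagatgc
Lgmn (chr12:102439126-102439151, minus strand): gaatgtctgtCACGTGgtccatttta
Gla (chrX:134601184-134601242, minus strand): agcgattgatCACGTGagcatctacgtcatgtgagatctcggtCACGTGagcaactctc
Glb1 (chr9:114401020-114401045, plus strand): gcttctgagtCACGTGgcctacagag
Gaa (chr11:119267813-119267838, plus strand): tctgtgcgatCACGTGtttgactctg
Naglu (chr11:101070011-101070036, plus strand): accttcaggtCACGTGgcccgaggtc
Sgsh (chr11:119355524-119355549, minus strand): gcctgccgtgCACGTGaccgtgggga
Atp6v1a (chr16:44139375-44139400, minus strand): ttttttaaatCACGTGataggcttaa
Atp6v0d1 (chr8:105566052-105566077, minus strand): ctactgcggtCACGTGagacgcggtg

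Lamp1 held 4 matches within 61 bases before its RefSeq start, the most of the 32 genes. Gla held 2, each within TCACGTGA, the nearer of them 194 bases before the start. Mcoln1 held 2, and Ctsa held a second one just past its start, which is not printed. Sgsh and Naglu, both enzymes of heparan sulfate breakdown, held 1 each, at 29 and 73 bases before the RefSeq start. All distances here are to RefSeq starts. The gene coordinates given below are from GENCODE M21, whose starts can differ, so a match may lie nearer to or inside the gene by those coordinates.

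Against Parental, more of the 37 genes were called lower than higher in each KD group, with small fold changes for most. In ORP5/8 KD, 22 were called lower and 8 higher (edgeR quasi-likelihood test, adjusted p under 0.05), where 24.3% of the 13107 tested genes were called lower and 22.0% higher. In ATP11A/C KD, 28 were lower and 2 higher, with 20.2% and 17.4% of all tested genes. In CDC50A KD, 26 were lower and 2 higher, with 26.1% and 24.3% of all tested genes. The 3 comparisons share the Parental libraries, so they are not independent of each other. The median log2 fold change of the 37 genes was -0.24 for ORP5/8 KD, -0.27 for ATP11A/C KD and -0.25 for CDC50A KD, against medians of 0.02, 0.01 and -0.01 over all tested genes. These genes are expressed more highly than most, with a median of 127 CPM against 27.3 CPM over all tested genes. Among the 7473 genes at 20 CPM or more, 30.3% were called lower and 23.0% higher in ORP5/8 KD, 22.2% and 21.8% in ATP11A/C KD, and 25.4% and 32.8% in CDC50A KD.

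Together the 37 genes held 1.07% ± 0.0202 of all counts for ORP5/8 KD, 0.922% ± 0.0140 for ATP11A/C KD and 0.882% ± 0.0125 for CDC50A KD, against 1.12% ± 0.0186 in Parental (SD, n = 4 each). The range of the shares in each KD group lay wholly below that of Parental. In bulk RNA, fewer cells of a type and less RNA per cell cannot be told apart. With upper-quartile scaling in place of TMM, the split of all tested genes in ORP5/8 KD moved to 4270 higher and 2479 lower, from 2878 higher and 3181 lower, and the 37 genes to 9 higher and 20 lower. Other measures moved with the groups. The 8 macrophage markers, all detected, summed to 6536 to 7008 CPM in ORP5/8 KD, 5502 to 5702 CPM in ATP11A/C KD and 6419.6 to 6662 CPM in CDC50A KD, against 10420.3 to 11151 CPM in Parental. Of the 8 markers, 7 were called lower and 1 higher in ORP5/8 KD, 7 lower and 1 higher in ATP11A/C KD, and 5 lower and 2 higher in CDC50A KD. All tested genes were called lower in 24.3%, 20.2% and 26.1% of cases in that order, and higher in 22.0%, 17.4% and 24.3%. Mitochondrial genes held 1.68% ± 0.112 of counts for ORP5/8 KD, 1.56% ± 0.194 for ATP11A/C KD and 1.63% ± 0.151 for CDC50A KD, against 1.19% ± 0.0744 in Parental. The part of either in the results on lysosomal genes was not tested. Markers of other cell types were near 0: 4 of 6 fibroblast, 4 of 5 epithelial and 5 of 6 lymphocyte markers had no count, and 2 of 5 dendritic cell markers, which summed to 1.87 to 2.93 CPM in ORP5/8 KD, 3.17 to 3.81 CPM in ATP11A/C KD and 2.28 to 2.68 CPM in CDC50A KD, against 1.62 to 2.43 CPM in Parental.

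**Figure D1:**
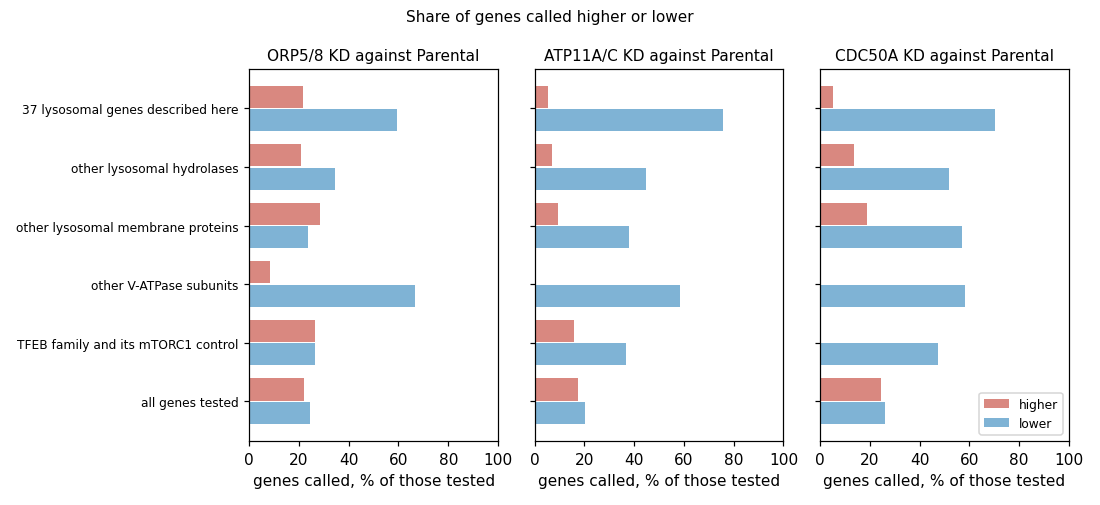
Percent of tested genes called higher (red) or lower (blue) at an adjusted p under 0.05 in each KD group against Parental, for the 37 lysosomal genes, lists of related genes and all 13107 tested genes. For the 37 genes the blue bars are longer than those of all tested genes in every panel, and the red bar comes near that of all genes in ORP5/8 KD (8 of 37, against 22.0%).

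**Figure D2:**
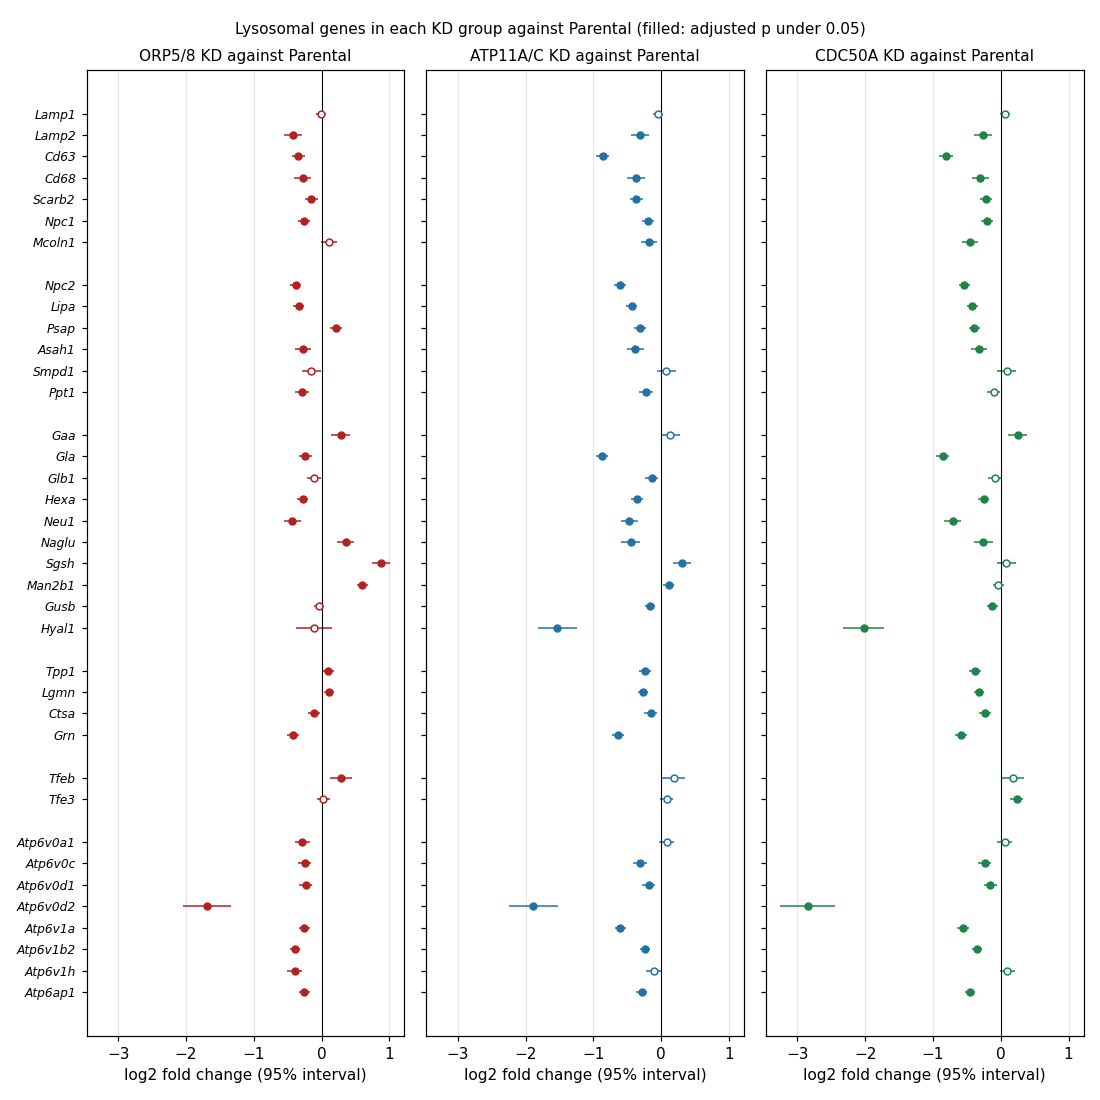
Log2 fold change of each of the 37 genes in the 3 KD groups against Parental (ORP5/8 KD at the left, CDC50A KD at the right), on 1 shared axis, ordered by role (points are estimates, lines 95% intervals, filled points have an adjusted p under 0.05). Most filled points lie left of 0, Atp6v0d2 lies farthest left in each panel (-1.69, -1.89 and -2.85), and Sgsh lies farthest right in ORP5/8 KD (0.87).

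The 7 membrane proteins split between Lamp1, which was not called, and falls in most of the others. In ORP5/8 KD, 5 of the 7 were lower and Lamp1 and Mcoln1 were not called. In each flippase KD group, 6 of the 7 were lower and Lamp1 was not called. Lamp1 and Lamp2 are the heavily glycosylated proteins that line the lysosomal wall, and Lamp2 also takes part in fusion with phagosomes. Lamp1 had 905, 923, 901 and 914 CPM in ORP5/8 KD 1 to 4, and 911, 895, 849 and 888 CPM in ATP11A/C KD 1 to 4. Its levels were 936, 995, 970.1 and 928 CPM in CDC50A KD 1 to 4, against 911, 928, 883 and 930.0 CPM in Parental 1 to 4. Each KD group overlaps Parental for Lamp1. Its log2 fold changes had 95% intervals of -0.08 to 0.07 in ORP5/8 KD, -0.12 to 0.03 in ATP11A/C KD and -0.01 to 0.14 in CDC50A KD. Lamp1 overlaps Grtp1 on the opposite strand. The deposited counts are labelled STRANDED, but the sources used here do not state the strand setting of the counting. Lamp2 had 307, 288, 252 and 302 CPM in ORP5/8 KD 1 to 4, and 280.1, 332, 296 and 335 CPM in ATP11A/C KD 1 to 4. Its levels were 311, 352, 318 and 303 CPM in CDC50A KD 1 to 4, against 375, 392, 392 and 384 CPM in Parental 1 to 4. Every KD library lay below every Parental library for Lamp2. The estimated log2 fold change of Lamp2 was -0.43 ± 0.0638 (adjusted p = 1.17e-05) for ORP5/8 KD, -0.31 ± 0.0638 (adjusted p = 0.000566) for ATP11A/C KD and -0.26 ± 0.0638 (adjusted p = 0.00168) for CDC50A KD.

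Cd63, a tetraspanin of late endosomes and exosomes, had the largest change of the membrane proteins in both flippase KD groups. Cd63 had 154, 167, 154 and 166 CPM in ORP5/8 KD 1 to 4, and 115, 119, 105 and 108 CPM in ATP11A/C KD 1 to 4. Its levels were 112, 120.4, 120.2 and 111 CPM in CDC50A KD 1 to 4, against 194, 211, 205 and 202 CPM in Parental 1 to 4. Its KD libraries lay below all Parental libraries, and those of ATP11A/C KD and CDC50A KD also below all of ORP5/8 KD. Its log2 fold change against Parental was -0.34 ± 0.0471 (adjusted p = 4.19e-06) for ORP5/8 KD, -0.86 ± 0.0477 (adjusted p = 4.96e-12) for ATP11A/C KD and -0.81 ± 0.0477 (adjusted p = 1.42e-11) for CDC50A KD. A record for the pseudogene Cd63-ps, which could take reads from Cd63 or lend it some, averaged 22.1 ± 1.00 CPM in ORP5/8 KD, 14.7 ± 0.395 CPM in ATP11A/C KD and 13.8 ± 0.503 CPM in CDC50A KD, against 26.9 ± 1.88 CPM in Parental. Cd68, the macrophage form of the lamp family, averaged 773 ± 37.4 CPM in ORP5/8 KD, 726 ± 67.2 CPM in ATP11A/C KD and 762 ± 53.1 CPM in CDC50A KD, against 938 ± 53.5 CPM in Parental. It was called lower in each KD group with log2 fold changes of -0.28 ± 0.0616, -0.37 ± 0.0617 and -0.30 ± 0.0617 in that order. Scarb2, the receptor that brings glucocerebrosidase to lysosomes, averaged 77.5 ± 1.76 CPM in ORP5/8 KD, 66.7 ± 1.29 CPM in ATP11A/C KD and 73.9 ± 4.64 CPM in CDC50A KD, against 86.0 ± 2.77 CPM in Parental. Its call in ORP5/8 KD, at -0.15 ± 0.0437 (adjusted p = 0.0077), was lost with upper-quartile scaling, at -0.08 (adjusted p = 0.142), and without Parental 2, at -0.11 (adjusted p = 0.0632). Npc1, the membrane protein that passes cholesterol out of the lysosome, averaged 84.8 ± 1.83 CPM in ORP5/8 KD, 88.0 ± 4.95 CPM in ATP11A/C KD and 87.9 ± 2.65 CPM in CDC50A KD, against 101 ± 2.12 CPM in Parental, a similar shortfall in each KD group. Mcoln1, the calcium channel TRPML1, averaged 40.5 ± 3.26 CPM in ORP5/8 KD, 33.2 ± 1.05 CPM in ATP11A/C KD and 27.4 ± 1.00 CPM in CDC50A KD, against 37.6 ± 1.66 CPM in Parental. Its log2 fold change was -0.45 ± 0.0573 (adjusted p = 1.46e-06) in CDC50A KD and -0.18 ± 0.0564 (adjusted p = 0.0147) in ATP11A/C KD, where the call was lost without Parental 1 (adjusted p = 0.0514), Parental 4 (adjusted p = 0.0578) or ATP11A/C KD 4 (adjusted p = 0.0561). In ORP5/8 KD Mcoln1 was not called at 0.10 ± 0.0558 (adjusted p = 0.135), but was called higher with upper-quartile scaling, at 0.18 (adjusted p = 0.012), and without ORP5/8 KD 2, at 0.17 (adjusted p = 0.011).

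Of the 6 genes for lipid breakdown and transfer, 4 were lower and Psap was higher in ORP5/8 KD, 5 were lower in ATP11A/C KD and 4 were lower in CDC50A KD. The shares of all tested genes called lower were 24.3%, 20.2% and 26.1% in that order, and 22.0% were higher in ORP5/8 KD. Npc2 is the soluble protein that hands cholesterol to NPC1. Npc2 had 268, 286, 271 and 282 CPM in ORP5/8 KD 1 to 4, and 244, 240.0, 231 and 234 CPM in ATP11A/C KD 1 to 4. Its levels were 239, 253, 253 and 249 CPM in CDC50A KD 1 to 4, against 345, 379.8, 359.6 and 359.5 CPM in Parental 1 to 4. Each KD library lay below every Parental library. Against Parental, the log2 fold change of Npc2 was -0.38 ± 0.0393 (adjusted p = 5.59e-08) for ORP5/8 KD, -0.61 ± 0.0394 (adjusted p = 6.96e-11) for ATP11A/C KD and -0.54 ± 0.0394 (adjusted p = 4.33e-10) for CDC50A KD. Lipa, the acid lipase that frees cholesterol from its esters, averaged 554 ± 15.2 CPM in ORP5/8 KD, 517 ± 22.7 CPM in ATP11A/C KD and 524 ± 13.0 CPM in CDC50A KD, against 699 ± 10.3 CPM in Parental. The gene was called lower in each KD group (adjusted p = 2.92e-07, 8.61e-09 and 1.65e-08 in that order). Psap, the precursor of the saposins, which present sphingolipids to their hydrolases, averaged 1228 ± 55.1 CPM in ORP5/8 KD, 854 ± 37.9 CPM in ATP11A/C KD and 808 ± 14.1 CPM in CDC50A KD, against 1058 ± 33.0 CPM in Parental. It was thus higher in ORP5/8 KD and lower in both flippase KD groups: its log2 fold change was 0.22 ± 0.0414 (adjusted p = 0.000204) for ORP5/8 KD, -0.31 ± 0.0415 (adjusted p = 4.02e-06) for ATP11A/C KD and -0.39 ± 0.0415 (adjusted p = 1.45e-07) for CDC50A KD. Asah1, acid ceramidase, averaged 109 ± 2.85 CPM in ORP5/8 KD, 101 ± 12.3 CPM in ATP11A/C KD and 105 ± 3.69 CPM in CDC50A KD, against 131 ± 3.23 CPM in Parental. It was called lower in each KD group (adjusted p = 0.000722, 3.16e-05 and 0.000152). Ppt1, a thioesterase that takes fatty acids off proteins, averaged 115 ± 5.52 CPM in ORP5/8 KD, 121 ± 7.32 CPM in ATP11A/C KD and 131 ± 5.65 CPM in CDC50A KD, against 141 ± 2.95 CPM in Parental. The gene was called lower in both ORP5/8 KD and ATP11A/C KD. CDC50A KD was not called, at -0.10 ± 0.0474 (adjusted p = 0.0754) but was called with the 1 CPM filter (adjusted p = 0.0376), with the replicate block (adjusted p = 0.0439), with the compared groups fitted alone (adjusted p = 0.0309), without CDC50A KD 2 (adjusted p = 0.0480) and without CDC50A KD 4 (adjusted p = 0.0385). Smpd1, acid sphingomyelinase, averaged 22.9 ± 1.58 CPM in ORP5/8 KD, 26.7 ± 2.19 CPM in ATP11A/C KD and 26.9 ± 1.30 CPM in CDC50A KD, against 25.3 ± 1.57 CPM in Parental. It was not called in any KD group. Its 95% interval of the log2 fold change was -0.29 to -0.01 in ORP5/8 KD, where leaving out Parental 3 gave a call at -0.19 (adjusted p = 0.0342), -0.07 to 0.21 in ATP11A/C KD and -0.05 to 0.23 in CDC50A KD.

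The 10 enzymes of sugar chains (9 glycosidases and the sulfatase Sgsh) held the largest rises in ORP5/8 KD, where 4 were higher and 3 lower. Of all tested genes, 22.0% were higher and 24.3% lower there, so the 30.0% lower was near that share. In ATP11A/C KD, 7 were lower and 2 higher, with 20.2% and 17.4% of all tested genes. In CDC50A KD, 6 were lower and 1 higher, with 26.1% and 24.3%. Sgsh, the sulfamidase that takes sulfate off heparan sulfate, lies at chr11:119343425-119355536, minus strand (GRCm38). Sgsh had 49.7, 52.4, 50.2 and 50.8 CPM in ORP5/8 KD 1 to 4, and 40.1, 29.5, 33.9 and 33.4 CPM in ATP11A/C KD 1 to 4. Its levels were 29.7, 28.6, 29.8 and 29.0 CPM in CDC50A KD 1 to 4, against 28.7, 27.4, 27.3 and 27.5 CPM in Parental 1 to 4. The ORP5/8 KD libraries all lay far above the rest, those of ATP11A/C KD lay above all of Parental with a wide spread, and those of CDC50A KD overlapped Parental. On the log2 scale, the fold change was 0.87 ± 0.0646 (adjusted p = 3.25e-10) for ORP5/8 KD, 0.31 ± 0.0654 (adjusted p = 0.000848) for ATP11A/C KD and 0.08 ± 0.0662 (adjusted p = 0.327) for CDC50A KD. Sgsh overlaps Card14 on the opposite strand. Man2b1, the acid alpha-mannosidase, lies at chr8:85083270-85098282, plus strand. Man2b1 had 199, 210.5, 216 and 203 CPM in ORP5/8 KD 1 to 4, and 153, 142, 147 and 147 CPM in ATP11A/C KD 1 to 4. Its levels were 138, 129, 139 and 127 CPM in CDC50A KD 1 to 4, against 138, 135, 137 and 136 CPM in Parental 1 to 4. ORP5/8 KD again lay above every other library, and ATP11A/C KD narrowly above Parental. Its fold change, as log2 against Parental, was 0.60 ± 0.0408 (adjusted p = 7.22e-11) for ORP5/8 KD, 0.11 ± 0.0408 (adjusted p = 0.0396) for ATP11A/C KD and -0.03 ± 0.0410 (adjusted p = 0.513) for CDC50A KD. The small rise of Man2b1 in ATP11A/C KD was lost with no filter (adjusted p = 0.0988), with the 1 CPM filter (adjusted p = 0.0511), with the compared groups alone (adjusted p = 0.0575) and without Parental 2, 3 or 4 (adjusted p = 0.0535, 0.0664 and 0.0834) or ATP11A/C KD 1 (adjusted p = 0.117).

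Naglu, which acts on heparan sulfate in the same pathway as Sgsh, averaged 76.1 ± 6.17 CPM in ORP5/8 KD, 43.5 ± 4.29 CPM in ATP11A/C KD and 49.9 ± 2.30 CPM in CDC50A KD, against 59.5 ± 1.97 CPM in Parental. It was higher in ORP5/8 KD and lower in the flippase KD groups, with log2 fold changes of 0.35 ± 0.0631 (adjusted p = 9.35e-05) for ORP5/8 KD, -0.45 ± 0.0644 (adjusted p = 9.22e-06) for ATP11A/C KD and -0.25 ± 0.0644 (adjusted p = 0.00246) for CDC50A KD. Gaa, the alpha-glucosidase that digests glycogen, averaged 131 ± 6.44 CPM in ORP5/8 KD, 118 ± 14.7 CPM in ATP11A/C KD and 128 ± 4.55 CPM in CDC50A KD, against 108 ± 5.99 CPM in Parental. It was called higher in ORP5/8 KD at 0.28 ± 0.0668 (adjusted p = 0.00154) and in CDC50A KD at 0.25 ± 0.0670 (adjusted p = 0.00391). In ATP11A/C KD it was not called at 0.13 ± 0.0669 (adjusted p = 0.123), and was called higher without ATP11A/C KD 2, at 0.22 (adjusted p = 0.00315).

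Gla, the alpha-galactosidase that acts on globotriaosylceramide, lies at chrX:134588149-134601125, minus strand (GRCm38). Gla had 47.8, 48.7, 46.3 and 45.5 CPM in ORP5/8 KD 1 to 4, and 30.9, 31.4, 28.3 and 30.9 CPM in ATP11A/C KD 1 to 4. Its levels were 30.6, 31.5, 30.6 and 30.1 CPM in CDC50A KD 1 to 4, against 53.5, 55.6, 56.1 and 57.0 CPM in Parental 1 to 4. The ATP11A/C KD and CDC50A KD libraries lay below all others, and ORP5/8 KD lay between them and Parental. The estimated log2 fold change was -0.24 ± 0.0435 (adjusted p = 0.000122) for ORP5/8 KD, -0.87 ± 0.0445 (adjusted p = 1.41e-12) for ATP11A/C KD and -0.86 ± 0.0448 (adjusted p = 2.16e-12) for CDC50A KD. Of the 11 genes with CACGTG printed above, Gla had the largest falls in the flippase KD groups and Sgsh the largest rise in ORP5/8 KD.

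Hyal1, a hyaluronidase, is expressed at a low level. It lies at chr9:107576927-107581710, plus strand. Hyal1 had 13.5, 17.1, 14.0 and 16.8 CPM in ORP5/8 KD 1 to 4, and 7.67, 5.65, 5.45 and 4.13 CPM in ATP11A/C KD 1 to 4. Its levels were 3.71, 3.72, 4.72 and 4.18 CPM in CDC50A KD 1 to 4, against 15.3, 15.7, 15.9 and 19.7 CPM in Parental 1 to 4. ORP5/8 KD overlapped Parental, and all libraries of ATP11A/C KD and CDC50A KD lay far below both. Its log2 fold change against Parental was -1.53 ± 0.138 (adjusted p = 1.21e-08) in ATP11A/C KD, 34.4% of the Parental mean, and -2.02 ± 0.145 (adjusted p = 3.1e-10) in CDC50A KD, 24.5% of it. In ORP5/8 KD it was not called, at -0.12 ± 0.128 (adjusted p = 0.486). Hyal1 overlaps Hyal3 and Naa80 on the same strand, so the split of reads between these genes is uncertain. Neu1, the sialidase of the lysosome, was lower in each KD group. Neu1 had 51.7, 54.6, 56.8 and 56.7 CPM in ORP5/8 KD 1 to 4, and 55.2, 49.8, 55.8 and 53.2 CPM in ATP11A/C KD 1 to 4. Its levels were 42.1, 42.9, 45.2 and 51.2 CPM in CDC50A KD 1 to 4, against 74.2, 75.5, 68.0 and 78.7 CPM in Parental 1 to 4. All KD libraries lay below the lowest Parental library. Against Parental, the log2 fold change of Neu1 was -0.43 ± 0.0590 (adjusted p = 3.51e-06) for ORP5/8 KD, -0.47 ± 0.0592 (adjusted p = 1.67e-06) for ATP11A/C KD and -0.71 ± 0.0600 (adjusted p = 4.62e-09) for CDC50A KD.

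Hexa, the alpha subunit of beta-hexosaminidase, averaged 199 ± 4.57 CPM in ORP5/8 KD, 189 ± 10.2 CPM in ATP11A/C KD and 203 ± 2.91 CPM in CDC50A KD, against 242 ± 6.49 CPM in Parental. It was called lower in each KD group (adjusted p = 6.58e-06, 3.18e-07 and 2.61e-05 in that order). Gusb, the beta-glucuronidase, averaged 564 ± 14.6 CPM in ORP5/8 KD, 517 ± 11.9 CPM in ATP11A/C KD and 532 ± 12.9 CPM in CDC50A KD, against 579 ± 19.1 CPM in Parental. Its small fall was called in ATP11A/C KD at -0.17 ± 0.0371 (adjusted p = 0.00129) and in CDC50A KD at -0.12 ± 0.0371 (adjusted p = 0.0083), where the call was lost with no filter (adjusted p = 0.0610) and without Parental 2 (adjusted p = 0.0569). Glb1, the beta-galactosidase, averaged 51.1 ± 2.39 CPM in ORP5/8 KD, 50.1 ± 1.79 CPM in ATP11A/C KD and 52.0 ± 1.58 CPM in CDC50A KD, against 55.3 ± 3.23 CPM in Parental, and its groups overlap. Glb1 was called in ATP11A/C KD at -0.14 ± 0.0484 (adjusted p = 0.0253), but not with upper-quartile scaling (adjusted p = 0.0624), nor without Parental 1, 2 or 4 (adjusted p = 0.0543, 0.127 and 0.0941) or ATP11A/C KD 2, 3 or 4 (adjusted p = 0.103, 0.0755 and 0.0528). It was not called in ORP5/8 KD (adjusted p = 0.0565) or CDC50A KD (adjusted p = 0.124). Without Parental 3 it was called lower in both (adjusted p = 0.0204 and 0.0472), and in ORP5/8 KD also without ORP5/8 KD 3 (adjusted p = 0.0384). Glb1 overlaps Tmppe on the same strand, so the split of reads between them is uncertain.

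The peptidases and protective proteins fell together in the flippase KD groups, where all 4 were lower in ATP11A/C KD and all 4 in CDC50A KD. With ORP5/8 KD, 2 were higher and 2 lower. Grn encodes progranulin, whose pieces support several hydrolases. Grn had 862, 946, 921 and 936 CPM in ORP5/8 KD 1 to 4, and 836, 745, 765 and 807 CPM in ATP11A/C KD 1 to 4. Its levels were 797, 806, 845 and 811 CPM in CDC50A KD 1 to 4, against 1212, 1289.5, 1166 and 1233 CPM in Parental 1 to 4. No KD library reached the lowest Parental library. On the log2 scale, the fold change of Grn was -0.42 ± 0.0443 (adjusted p = 8.94e-08) for ORP5/8 KD, -0.64 ± 0.0444 (adjusted p = 2.15e-10) for ATP11A/C KD and -0.59 ± 0.0444 (adjusted p = 7.44e-10) for CDC50A KD. Tpp1, a tripeptidyl peptidase, averaged 223 ± 6.63 CPM in ORP5/8 KD, 177 ± 6.91 CPM in ATP11A/C KD and 160.2 ± 5.45 CPM in CDC50A KD, against 208 ± 5.38 CPM in Parental. It was lower in ATP11A/C KD at -0.24 ± 0.0398 (adjusted p = 6.5e-05) and in CDC50A KD at -0.38 ± 0.0400 (adjusted p = 1.14e-07). For ORP5/8 KD Tpp1 was called higher at 0.10 ± 0.0397 (adjusted p = 0.0459), but not with no filter (adjusted p = 0.0888), nor without Parental 2, 3 or 4 (adjusted p = 0.0583, 0.135 and 0.0657) or ORP5/8 KD 4 (adjusted p = 0.150). Lgmn, an asparaginyl endopeptidase that also cuts other hydrolases into their active forms, averaged 611 ± 11.0 CPM in ORP5/8 KD, 472 ± 12.9 CPM in ATP11A/C KD and 455 ± 6.05 CPM in CDC50A KD, against 567 ± 13.9 CPM in Parental. It was lower in ATP11A/C KD at -0.27 ± 0.0350 (adjusted p = 3.14e-06) and in CDC50A KD at -0.32 ± 0.0350 (adjusted p = 2.3e-07), and higher in ORP5/8 KD at 0.11 ± 0.0349 (adjusted p = 0.0149), a call lost with no filter (adjusted p = 0.0562) and without Parental 3 (adjusted p = 0.0593). Ctsa, the protective protein that holds NEU1 and beta-galactosidase together, averaged 768 ± 40.6 CPM in ORP5/8 KD, 745 ± 39.4 CPM in ATP11A/C KD and 706 ± 10.4 CPM in CDC50A KD, against 829.6 ± 27.0 CPM in Parental. Its falls were called in ATP11A/C KD (adjusted p = 0.00866) and CDC50A KD (adjusted p = 0.000186). With ORP5/8 KD the call, at -0.11 ± 0.0444 (adjusted p = 0.0456), was lost in 12 of 15 other settings, among them without ORP5/8 KD 1 (adjusted p = 0.271), 2 (adjusted p = 0.0933) or 4 (adjusted p = 0.0779) and without Parental 1 (adjusted p = 0.120), 2 (adjusted p = 0.183) or 4 (adjusted p = 0.111). Ctsa overlaps Pltp and Neurl2 on the opposite strand.

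**Figure D3:**
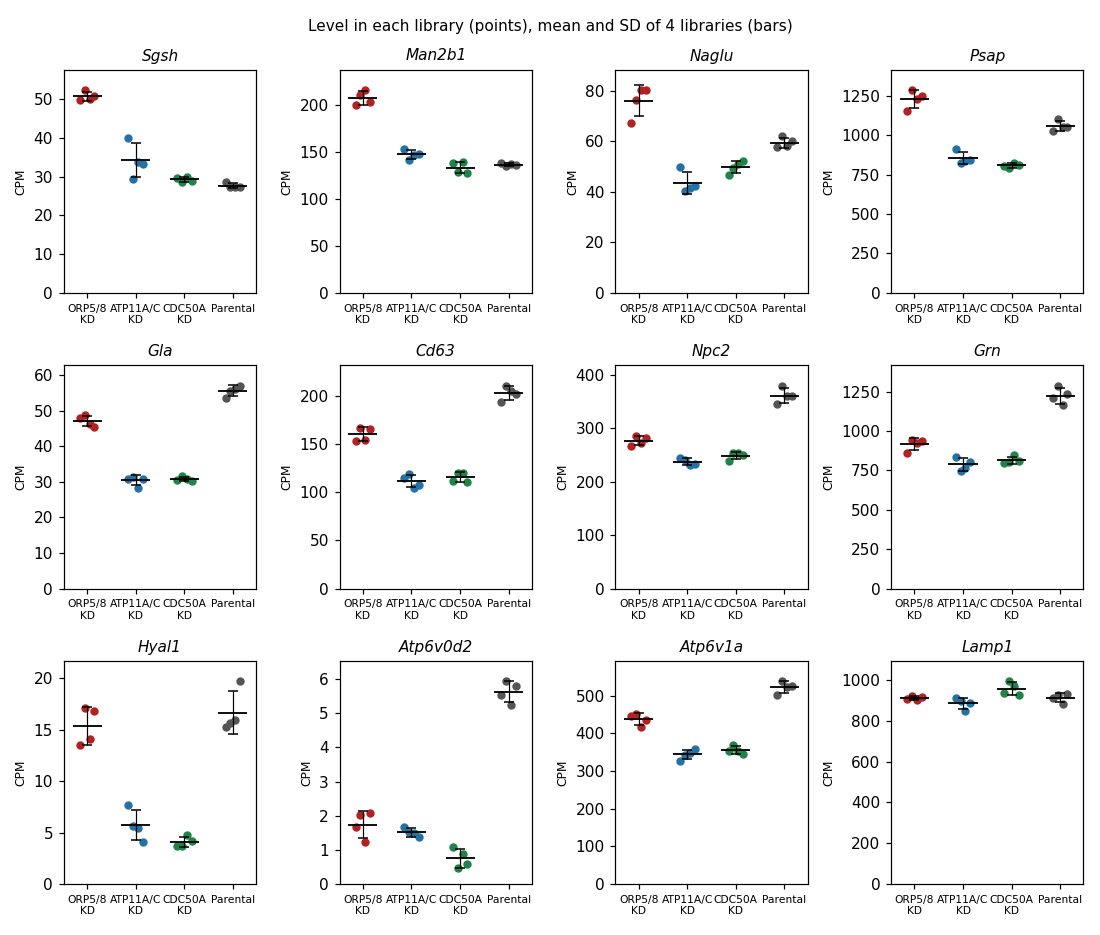
CPM in each library (points) for 12 of the 37 genes, with the mean and SD of 4 libraries (bars), for ORP5/8 KD, ATP11A/C KD, CDC50A KD and Parental from left to right, on axes that start at 0. Sgsh and Man2b1 are highest in ORP5/8 KD, Naglu and Psap are above Parental in ORP5/8 KD and below it in the other KD groups, Hyal1 is low in ATP11A/C KD and CDC50A KD, and Lamp1 in each KD group overlaps Parental.

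Most V-ATPase genes were lower. All 8 described here were lower in ORP5/8 KD, and 6 of 8 in ATP11A/C KD and 6 of 8 in CDC50A KD, where Atp6v0a1 and Atp6v1h were not called. Of all tested genes, 24.3%, 20.2% and 26.1% were lower in that order. The greatest fold change of the 37 genes was that of Atp6v0d2, at chr4:19876841-19922605, minus strand, a d subunit of V0 that osteoclasts and some macrophages make beside the general d1 form. Atp6v0d2 had 1.66, 2.01, 1.23 and 2.07 CPM in ORP5/8 KD 1 to 4, and 1.68, 1.53, 1.49 and 1.36 CPM in ATP11A/C KD 1 to 4. Its levels were 1.08, 0.482, 0.888 and 0.586 CPM in CDC50A KD 1 to 4, against 5.54, 5.94, 5.23 and 5.79 CPM in Parental 1 to 4. All KD libraries lay below all Parental libraries, and those of CDC50A KD lay lowest. Its fold change, as log2 against Parental, was -1.69 ± 0.172 (adjusted p = 4.86e-08) for ORP5/8 KD, -1.89 ± 0.176 (adjusted p = 2.05e-08) for ATP11A/C KD and -2.85 ± 0.195 (adjusted p = 1.5e-10) for CDC50A KD, which leaves 30.9%, 27.0% and 13.5% of the Parental mean. Atp6v0d1 had 108, 120.5, 113 and 116 CPM in ORP5/8 KD 1 to 4, and 123, 118, 114 and 118 CPM in ATP11A/C KD 1 to 4. Its levels were 119, 127, 126 and 113 CPM in CDC50A KD 1 to 4, against 127, 141, 135 and 134 CPM in Parental 1 to 4. Atp6v0d1, the general d subunit, changed less: its log2 fold change was -0.23 ± 0.0468 (adjusted p = 0.000325) for ORP5/8 KD, -0.19 ± 0.0468 (adjusted p = 0.00349) for ATP11A/C KD and -0.15 ± 0.0469 (adjusted p = 0.0104) for CDC50A KD, and the last of these calls was lost without Parental 2 (adjusted p = 0.0568).

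Per length of merged exons, Atp6v0d2 was 0.991% ± 0.198 of d1 plus d2 for ORP5/8 KD, 0.839% ± 0.0563 for ATP11A/C KD and 0.413% ± 0.150 for CDC50A KD, against 2.69% ± 0.139 in Parental (SD, n = 4 each). The d1 form thus made up nearly all of the d subunit transcripts in each group. Atp6v1a encodes the catalytic A subunit of V1. Atp6v1a had 446, 452, 417 and 435 CPM in ORP5/8 KD 1 to 4, and 328, 344, 348 and 357 CPM in ATP11A/C KD 1 to 4. Its levels were 353, 369, 353 and 345 CPM in CDC50A KD 1 to 4, against 501, 539, 522 and 527 CPM in Parental 1 to 4. Its KD libraries lay below all Parental libraries, and the flippase KD groups below ORP5/8 KD. The estimated log2 fold change of Atp6v1a was -0.25 ± 0.0398 (adjusted p = 2.04e-05) for ORP5/8 KD, -0.60 ± 0.0400 (adjusted p = 1.01e-10) for ATP11A/C KD and -0.56 ± 0.0400 (adjusted p = 3.51e-10) for CDC50A KD. Atp6v1b2, the B subunit, averaged 211 ± 4.98 CPM in ORP5/8 KD, 235 ± 9.48 CPM in ATP11A/C KD and 216 ± 1.87 CPM in CDC50A KD, against 276 ± 4.56 CPM in Parental. The gene was called lower in each KD group (adjusted p = 1.51e-08, 2.87e-05 and 9.02e-08). Atp6ap1, an accessory protein of V0 assembly, averaged 211 ± 4.86 CPM in ORP5/8 KD, 206 ± 4.72 CPM in ATP11A/C KD and 184 ± 7.18 CPM in CDC50A KD, against 251 ± 4.28 CPM in Parental, with its largest fall in CDC50A KD at -0.45 ± 0.0373 (adjusted p = 3.19e-09). Atp6v0c, the proteolipid of the proton-carrying ring, averaged 489 ± 19.7 CPM in ORP5/8 KD, 468 ± 28.6 CPM in ATP11A/C KD and 494 ± 27.7 CPM in CDC50A KD, against 582 ± 13.3 CPM in Parental. It was called lower in each KD group. Its pseudogene record Atp6v0c-ps2 averaged 85.4 ± 6.78 CPM in ORP5/8 KD, 83.8 ± 2.60 CPM in ATP11A/C KD and 90.5 ± 3.79 CPM in CDC50A KD, against 108 ± 7.63 CPM in Parental, so reads may be split between them. Atp6v1h, the regulatory H subunit, averaged 63.5 ± 3.71 CPM in ORP5/8 KD, 77.6 ± 6.72 CPM in ATP11A/C KD and 89.6 ± 0.693 CPM in CDC50A KD, against 83.7 ± 3.28 CPM in Parental. It fell in ORP5/8 KD at -0.40 ± 0.0545 (adjusted p = 3.6e-06). It was not called in ATP11A/C KD at -0.11 ± 0.0543 (adjusted p = 0.117), but was without ATP11A/C KD 2, at -0.15 (adjusted p = 0.0321), and not in CDC50A KD at 0.10 ± 0.0543 (adjusted p = 0.141), but was with the compared groups alone (adjusted p = 0.0384). Atp6v0a1, an a subunit, averaged 47.5 ± 2.19 CPM in ORP5/8 KD, 61.1 ± 4.92 CPM in ATP11A/C KD and 60.2 ± 2.34 CPM in CDC50A KD, against 57.8 ± 1.45 CPM in Parental. It fell in ORP5/8 KD at -0.28 ± 0.0527 (adjusted p = 0.000159), and had 95% intervals of -0.03 to 0.19 in ATP11A/C KD and -0.05 to 0.17 in CDC50A KD.

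Of 17 other V-ATPase genes, 12 were tested, of which 8 were lower and 1 higher in ORP5/8 KD, 7 lower and 5 not called in ATP11A/C KD, and 7 lower and 5 not called in CDC50A KD. Over all tested genes, 24.3%, 20.2% and 26.1% were called lower in that order. Tcirg1, the a3 subunit found on lysosomes of macrophages and osteoclasts, averaged 244 ± 19.2 CPM in ORP5/8 KD, 199 ± 11.2 CPM in ATP11A/C KD and 145 ± 10.3 CPM in CDC50A KD, against 298 ± 24.8 CPM in Parental. This gave log2 fold changes of -0.29 ± 0.0650 (adjusted p = 0.000933) for ORP5/8 KD, -0.59 ± 0.0653 (adjusted p = 3.06e-07) for ATP11A/C KD and -1.04 ± 0.0661 (adjusted p = 4.5e-11) for CDC50A KD. Per length, Tcirg1 made up 71.8% ± 1.94 of the a1, a2 and a3 transcripts for ORP5/8 KD, 64.6% ± 2.12 for ATP11A/C KD and 55.2% ± 2.50 for CDC50A KD, against 71.6% ± 1.45 in Parental, and Atp6v0a1 made up 9.87% ± 0.892, 14.0% ± 1.19 and 16.1% ± 0.888 in the KD groups in that order, against 9.77% ± 0.591 in Parental. The mix of a subunits in ORP5/8 KD was therefore within the Parental range for Tcirg1 at its mean, while in both flippase KD groups the share of Tcirg1 lay below every Parental library. Atp6v0e, a small V0 subunit, averaged 67.2 ± 2.06 CPM in ORP5/8 KD, 105 ± 6.05 CPM in ATP11A/C KD and 105 ± 4.02 CPM in CDC50A KD, against 113 ± 5.76 CPM in Parental. The gene was called lower in ORP5/8 KD at -0.75 ± 0.0482 (adjusted p = 2.88e-11). Atp6v1g1, a stalk subunit, was lower in each KD group with log2 fold changes of -0.62 ± 0.0421 (adjusted p = 8.18e-11) for ORP5/8 KD, -0.36 ± 0.0419 (adjusted p = 5.8e-07) for ATP11A/C KD and -0.29 ± 0.0420 (adjusted p = 7.65e-06) for CDC50A KD. Atp6v1c1, the C subunit that joins V1 to V0, was called at -0.15 ± 0.0408 (adjusted p = 0.00397) for ORP5/8 KD, -0.42 ± 0.0410 (adjusted p = 4.26e-08) for ATP11A/C KD and -0.43 ± 0.0411 (adjusted p = 2.47e-08) for CDC50A KD. Atp6v0a2, the a2 subunit, was lower in ORP5/8 KD at -0.33 ± 0.0426 (adjusted p = 1.92e-06) and in ATP11A/C KD at -0.23 ± 0.0426 (adjusted p = 0.000204), and not called in CDC50A KD at -0.05 ± 0.0426 (adjusted p = 0.338).

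**Figure D4:**
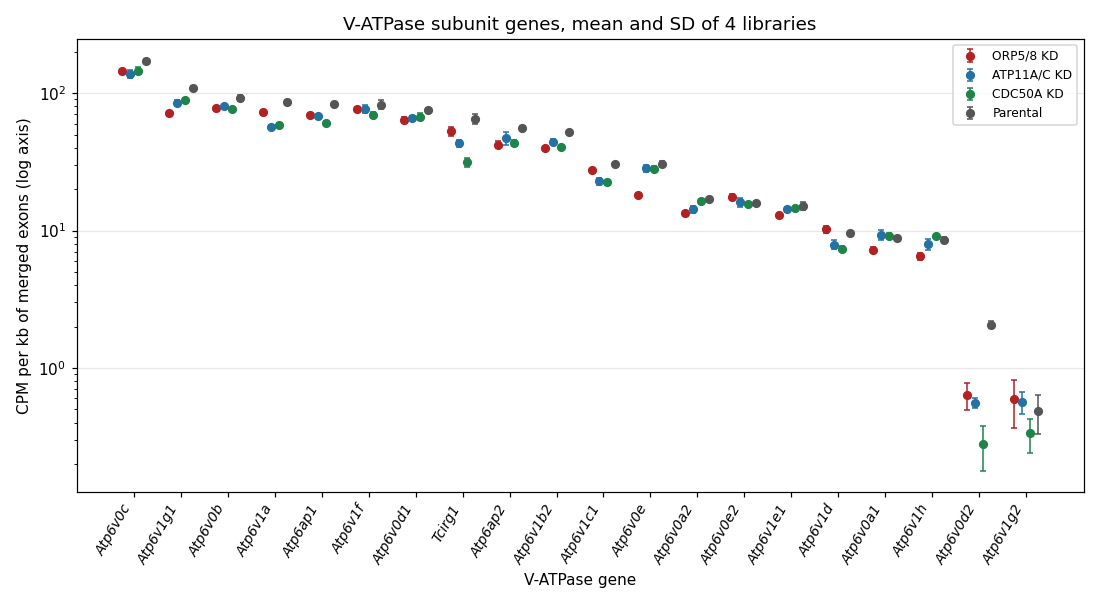
Level per kb of merged exons (CPM per kb, log axis) of the 20 tested V-ATPase genes, 8 of the 37 described here and 12 others, as mean and SD of 4 libraries for ORP5/8 KD, ATP11A/C KD, CDC50A KD and Parental, ordered by the Parental level. The Parental point is the highest of the 4 for most genes, and Atp6v0d2, at 2.07 CPM per kb in Parental, shows the widest gap to the KD groups.

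The transcripts of TFEB and TFE3 changed little, and upward where they were called. Tfeb had 27.8, 31.8, 38.2 and 34.4 CPM in ORP5/8 KD 1 to 4, and 34.7, 28.3, 30.4 and 29.6 CPM in ATP11A/C KD 1 to 4. Its levels were 32.2, 29.9, 30.4 and 30.5 CPM in CDC50A KD 1 to 4, against 27.6, 28.6, 26.6 and 25.5 CPM in Parental 1 to 4. The ORP5/8 KD and ATP11A/C KD libraries overlap Parental, and CDC50A KD lay above it. Its log2 fold change against Parental was 0.29 ± 0.0782 (adjusted p = 0.00469) for ORP5/8 KD, 0.18 ± 0.0786 (adjusted p = 0.0733) for ATP11A/C KD and 0.18 ± 0.0790 (adjusted p = 0.0582) for CDC50A KD, so the call at an adjusted p under 0.05 was made in ORP5/8 KD. It was also reached in ATP11A/C KD with upper-quartile scaling, at 0.21 (adjusted p = 0.0407), and without ATP11A/C KD 2, at 0.23 (adjusted p = 0.03), and in CDC50A KD with upper-quartile scaling (adjusted p = 0.0498), with no filter (adjusted p = 0.0325), with the compared groups alone (adjusted p = 0.00734) and without Parental 2 (adjusted p = 0.0434). Tfe3 had 119, 120.3, 121 and 123 CPM in ORP5/8 KD 1 to 4, and 137, 115, 126 and 123 CPM in ATP11A/C KD 1 to 4. Its levels were 139, 138, 136 and 144 CPM in CDC50A KD 1 to 4, against 123, 119, 117 and 116 CPM in Parental 1 to 4. CDC50A KD lay above all Parental libraries and the other KD groups overlap them. Against Parental, the log2 fold change of Tfe3 was 0.03 ± 0.0447 (adjusted p = 0.649) for ORP5/8 KD, 0.08 ± 0.0447 (adjusted p = 0.167) for ATP11A/C KD and 0.23 ± 0.0448 (adjusted p = 0.000201) for CDC50A KD, and without ATP11A/C KD 2 it was also called in ATP11A/C KD, at 0.13 (adjusted p = 0.0142).

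Of the 20 other genes of the TFEB family and of its control by mTORC1, 19 were tested: 5 were higher and 5 lower in ORP5/8 KD, 3 higher and 7 lower in ATP11A/C KD, and 9 lower and 10 not called in CDC50A KD. In ORP5/8 KD that is 26.3% each way, near the 22.0% higher and 24.3% lower of all tested genes. In ATP11A/C KD it is 15.8% higher and 36.8% lower, against 17.4% and 20.2%. In CDC50A KD 47.4% were lower, against 26.1% of all tested genes. Tfec, a family member of myeloid cells, was low and averaged 3.11 ± 0.632 CPM in ORP5/8 KD, 2.83 ± 0.424 CPM in ATP11A/C KD and 2.32 ± 0.599 CPM in CDC50A KD, against 7.56 ± 0.655 CPM in Parental. This gave log2 fold changes of -1.28 ± 0.156 (adjusted p = 7.59e-07) for ORP5/8 KD, -1.42 ± 0.159 (adjusted p = 3.18e-07) for ATP11A/C KD and -1.70 ± 0.164 (adjusted p = 3.52e-08) for CDC50A KD. Mitf, another member, averaged 34.1 ± 2.19 CPM in ORP5/8 KD, 29.4 ± 1.59 CPM in ATP11A/C KD and 24.8 ± 1.84 CPM in CDC50A KD, against 40.1 ± 1.49 CPM in Parental. It was called lower in each KD group (adjusted p = 0.00302, 4.23e-06 and 8.88e-09). The family members thus did not move one way, with Tfeb upward in ORP5/8 KD and Tfec and Mitf downward in all KD groups. Flcn, the folliculin that lets mTORC1 hold TFEB in the cytoplasm, averaged 70.7 ± 1.39 CPM in ORP5/8 KD, 54.3 ± 3.58 CPM in ATP11A/C KD and 44.5 ± 3.51 CPM in CDC50A KD, against 49.0 ± 1.48 CPM in Parental. This gave log2 fold changes of 0.53 ± 0.0537 (adjusted p = 4.74e-08) for ORP5/8 KD, 0.15 ± 0.0541 (adjusted p = 0.0329) for ATP11A/C KD and -0.14 ± 0.0548 (adjusted p = 0.0444) for CDC50A KD. Fnip2, a partner of folliculin, averaged 329 ± 7.06 CPM in ORP5/8 KD, 202 ± 11.7 CPM in ATP11A/C KD and 169.7 ± 15.1 CPM in CDC50A KD, against 251 ± 3.51 CPM in Parental. This gave log2 fold changes of 0.39 ± 0.0529 (adjusted p = 3.16e-06) for ORP5/8 KD, -0.31 ± 0.0531 (adjusted p = 7.56e-05) for ATP11A/C KD and -0.57 ± 0.0534 (adjusted p = 2.31e-08) for CDC50A KD. Rragc, a Rag GTPase, was lower in each KD group with log2 fold changes of -0.30 ± 0.0439, -0.28 ± 0.0439 and -0.31 ± 0.0440 (adjusted p = 7.64e-06, 2.8e-05 and 5.52e-06).

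Other lysosomal genes outside the 37 were also lower more often than higher in most comparisons. Of 29 other hydrolases, 10 were lower and 6 higher in ORP5/8 KD, 13 lower and 2 higher in ATP11A/C KD, and 15 lower and 4 higher in CDC50A KD. Of 21 tested other membrane proteins (of 23), 5 were lower and 6 higher in ORP5/8 KD, 8 lower and 2 higher in ATP11A/C KD, and 12 lower and 4 higher in CDC50A KD. Over all tested genes, 24.3% were lower and 22.0% higher in ORP5/8 KD. The shares were 20.2% and 17.4% in ATP11A/C KD, and 26.1% and 24.3% in CDC50A KD. In ORP5/8 KD the other membrane proteins lay near the shares of all tested genes, at 23.8% lower and 28.6% higher. The other hydrolases there had 34.5% lower and 20.7% higher. Scpep1, a carboxypeptidase, had log2 fold changes of -0.58 ± 0.0434 (adjusted p = 3.62e-10) for ORP5/8 KD, -0.44 ± 0.0433 (adjusted p = 4.07e-08) for ATP11A/C KD and -0.41 ± 0.0434 (adjusted p = 1.51e-07) for CDC50A KD. Acp2, an acid phosphatase, had log2 fold changes of -0.41 ± 0.0447 (adjusted p = 1.5e-07) for ORP5/8 KD, -0.41 ± 0.0448 (adjusted p = 2.69e-07) for ATP11A/C KD and -0.46 ± 0.0452 (adjusted p = 3.99e-08) for CDC50A KD. Both were lower in each KD group. Gm2a, the cofactor that presents GM2 ganglioside to its hydrolase, was higher in ORP5/8 KD and lower in the flippase KD groups, at 0.26 ± 0.0641 (adjusted p = 0.00212) for ORP5/8 KD, -0.77 ± 0.0658 (adjusted p = 5.16e-09) for ATP11A/C KD and -0.62 ± 0.0658 (adjusted p = 1.25e-07) for CDC50A KD. Smpdl3a, a phosphodiesterase related to Smpd1, had -0.36 ± 0.0603 (adjusted p = 4.83e-05) for ORP5/8 KD, -0.81 ± 0.0617 (adjusted p = 9.14e-10) for ATP11A/C KD and -0.83 ± 0.0623 (adjusted p = 6.66e-10) for CDC50A KD.

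Among the other membrane proteins, Slc11a1, the metal transporter NRAMP1 of macrophage phagosomes, averaged 72.1 ± 2.38 CPM in ORP5/8 KD, 40.1 ± 2.90 CPM in ATP11A/C KD and 40.8 ± 2.68 CPM in CDC50A KD, against 79.2 ± 1.08 CPM in Parental. Mcoln2, a calcium channel related to Mcoln1, averaged 22.7 ± 1.25 CPM in ORP5/8 KD, 10.1 ± 1.07 CPM in ATP11A/C KD and 7.89 ± 0.851 CPM in CDC50A KD, against 24.5 ± 1.65 CPM in Parental. Both were lower in ATP11A/C KD (adjusted p = 2.8e-12 and 6.29e-11) and in CDC50A KD (adjusted p = 4.64e-12 and 2.14e-12), and in ORP5/8 KD Slc11a1 was slightly lower (adjusted p = 0.034) and Mcoln2 was not called (adjusted p = 0.286). Clcn7, the chloride-proton exchanger of lysosomes, averaged 56.5 ± 2.75 CPM in ORP5/8 KD, 45.2 ± 1.93 CPM in ATP11A/C KD and 40.0 ± 1.22 CPM in CDC50A KD, against 61.0 ± 3.26 CPM in Parental, and Ostm1, its partner subunit, averaged 39.0 ± 1.91 CPM in ORP5/8 KD, 33.9 ± 2.11 CPM in ATP11A/C KD and 32.3 ± 1.41 CPM in CDC50A KD, against 47.3 ± 1.15 CPM in Parental. Clcn7 was called lower in ATP11A/C KD and CDC50A KD but not in ORP5/8 KD (adjusted p = 0.0659), and Ostm1 was called lower in each KD group. Slc15a3, a transporter of histidine and small peptides, averaged 27.7 ± 1.41 CPM in ORP5/8 KD, 48.2 ± 3.79 CPM in ATP11A/C KD and 55.3 ± 3.18 CPM in CDC50A KD, against 60.4 ± 1.58 CPM in Parental, and had its largest fall in ORP5/8 KD at -1.13 ± 0.0571 (adjusted p = 5.11e-13). Slc29a3, a nucleoside transporter, averaged 48.5 ± 1.95 CPM in ORP5/8 KD, 29.4 ± 2.19 CPM in ATP11A/C KD and 31.3 ± 3.0 CPM in CDC50A KD, against 33.4 ± 1.14 CPM in Parental, and Ctns, the cystine exporter, averaged 32.8 ± 0.551 CPM in ORP5/8 KD, 22.8 ± 1.02 CPM in ATP11A/C KD and 19.9 ± 1.00 CPM in CDC50A KD, against 24.3 ± 1.66 CPM in Parental. Both were called higher in ORP5/8 KD (adjusted p = 4.75e-07 and 2.01e-06).

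Set directly against each other, the KD groups differed, with more of the 37 genes higher in ORP5/8 KD than in either flippase KD group. Against CDC50A KD, ORP5/8 KD had 17 of the 37 genes called higher and 6 lower, where 27.5% and 29.4% of all tested genes were called (23.3% and 40.5% of those at 20 CPM or more). Against ATP11A/C KD it had 16 higher and 4 lower, where 18.2% and 20.4% were called (17.3% and 27.2%). CDC50A KD against ATP11A/C KD had 5 higher and 9 lower, where 13.5% and 12.7% were called (19.7% and 12.0%). These comparisons share KD groups with each other and are not independent. With upper-quartile scaling all tested genes split 4463 higher to 2891 lower between ORP5/8 KD and CDC50A KD, in place of 3603 to 3848, and 3095 to 2018 between ORP5/8 KD and ATP11A/C KD, in place of 2392 to 2678. The 37 genes then split 20 higher to 4 lower and 18 higher to 4 lower. The median log2 difference of the 37 genes was 0.09 for ORP5/8 KD against CDC50A KD and 0.10 for ORP5/8 KD against ATP11A/C KD, against -0.01 and -0.00 over all tested genes.

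Among the enzymes of sugar chains, 6 of 10 were higher in ORP5/8 KD than in CDC50A KD and 6 of 10 higher than in ATP11A/C KD. Of all tested genes, 27.5% were higher in the first comparison and 18.2% in the second. For Hyal1 the log2 difference was 1.91 ± 0.144 (adjusted p = 5.34e-10) against CDC50A KD and 1.41 ± 0.137 (adjusted p = 3.82e-08) against ATP11A/C KD. For Sgsh it was 0.79 ± 0.0644 (adjusted p = 1.68e-09) and 0.57 ± 0.0634 (adjusted p = 3.22e-07) in the same order. For Naglu it was 0.61 ± 0.0637 (adjusted p = 7.9e-08) and 0.80 ± 0.0638 (adjusted p = 1.8e-09). These genes differ in how they compare with Parental, since Hyal1 in ORP5/8 KD overlapped Parental while Sgsh and Naglu were called higher than it. Gla differed by 0.62 ± 0.0447 (adjusted p = 2.7e-10) and 0.63 ± 0.0444 (adjusted p = 2.57e-10), Man2b1 by 0.64 ± 0.0408 (adjusted p = 3.79e-11) and 0.49 ± 0.0406 (adjusted p = 3.21e-09), and Psap by 0.60 ± 0.0416 (adjusted p = 1.19e-10) and 0.53 ± 0.0415 (adjusted p = 1.74e-09). Cd63 differed by 0.47 ± 0.0476 (adjusted p = 4.98e-08) and 0.52 ± 0.0475 (adjusted p = 1.45e-08), and Mcoln1 by 0.56 ± 0.0568 (adjusted p = 5.38e-08) and 0.29 ± 0.0558 (adjusted p = 0.000326). All of these were higher in ORP5/8 KD. All 4 peptidases and protective proteins were higher in ORP5/8 KD than in CDC50A KD and 3 of 4 than in ATP11A/C KD, where Ctsa was not called. The call of Ctsa against CDC50A KD was lost with no filter (adjusted p = 0.0601) and without ORP5/8 KD 3 (adjusted p = 0.0733).

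The V-ATPase genes differed both ways between KD groups. Atp6v1a was higher in ORP5/8 KD than in CDC50A KD, at 0.30 ± 0.0399 (adjusted p = 2.07e-06), and than in ATP11A/C KD, at 0.35 ± 0.0399 (adjusted p = 4.89e-07). Atp6v1h was lower, at -0.50 ± 0.0545 (adjusted p = 1.55e-07) and -0.29 ± 0.0544 (adjusted p = 0.000231), and so was Atp6v0a1, at -0.34 ± 0.0527 (adjusted p = 1.5e-05) and -0.36 ± 0.0524 (adjusted p = 1.06e-05). Subunits of 1 pump thus differed in opposite directions between the same groups. Atp6v0d2 was higher in ORP5/8 KD than in CDC50A KD, at 1.16 ± 0.208 (adjusted p = 8.31e-05), and lower in CDC50A KD than in ATP11A/C KD, at -0.96 ± 0.213 (adjusted p = 0.00248). ORP5/8 KD and ATP11A/C KD were not called apart, with a 95% interval of -0.20 to 0.58. Smpd1 was lower in ORP5/8 KD than in CDC50A KD, at -0.24 ± 0.0675 (adjusted p = 0.00545), and than in ATP11A/C KD, at -0.22 ± 0.0671 (adjusted p = 0.0116), the second lost without ORP5/8 KD 1 or ATP11A/C KD 1 (adjusted p = 0.0572 and 0.0599).

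A few calls between ORP5/8 KD and the flippase KD groups were less firm. Lamp2 was lower in ORP5/8 KD than in CDC50A KD, at -0.16 ± 0.0638 (adjusted p = 0.0358), a call lost with upper-quartile scaling (adjusted p = 0.220), with the 1 CPM filter (adjusted p = 0.0646) and without ORP5/8 KD 2 or 3 or CDC50A KD 1, 2 or 3 (adjusted p up to 0.205). Ppt1 was lower at -0.18 ± 0.0474 (adjusted p = 0.0026), a call lost with upper-quartile scaling (adjusted p = 0.0510). Between ORP5/8 KD and ATP11A/C KD, Lipa was higher with ORP5/8 KD, at 0.10 ± 0.0384 (adjusted p = 0.0423), a call lost with no filter (adjusted p = 0.0965), with the replicate block (adjusted p = 0.0516), with the compared groups alone (adjusted p = 0.112) and without ORP5/8 KD 1, 2 or 4 or ATP11A/C KD 1 or 3 (adjusted p up to 0.117).

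The pair of flippase KD groups differed in fewer of the 37 genes, and also in fewer of all tested genes. Of the 37, 5 were higher and 9 lower in CDC50A KD than in ATP11A/C KD, where 13.5% and 12.7% of all tested genes were. For ORP5/8 KD those shares were 27.5% and 29.4% against CDC50A KD, and 18.2% and 20.4% against ATP11A/C KD. Tpp1 was lower in CDC50A KD than in ATP11A/C KD, at -0.14 ± 0.0400 (adjusted p = 0.0122), and so were Mcoln1, at -0.27 ± 0.0573 (adjusted p = 0.00175), Neu1, at -0.24 ± 0.0602 (adjusted p = 0.00661), and Atp6ap1, at -0.16 ± 0.0373 (adjusted p = 0.00351). Atp6v1h was higher, at 0.21 ± 0.0542 (adjusted p = 0.00769). Of the 14 calls in this comparison 8 were lost in at least 1 other setting. That of Lamp1, at 0.11 ± 0.0364 (adjusted p = 0.0277), was lost with upper-quartile scaling (adjusted p = 0.0607), with no filter (adjusted p = 0.0640), with the compared groups alone (adjusted p = 0.120) and without ATP11A/C KD 3 or 4 or CDC50A KD 1, 2 or 3 (adjusted p up to 0.139). With the compared groups alone, the calls of Naglu, Scarb2, Tfe3 and Sgsh were lost too (adjusted p = 0.0640, 0.0765, 0.0714 and 0.0512). That of Naglu was also lost without ATP11A/C KD 2, 3 or 4 or CDC50A KD 2, 3 or 4 (adjusted p up to 0.10). That of Scarb2 was also lost without ATP11A/C KD 3 or CDC50A KD 1, 2 or 3 (adjusted p up to 0.0995), and that of Tfe3 without ATP11A/C KD 2 or CDC50A KD 4 (adjusted p up to 0.0641). That of Hyal1, at -0.49 ± 0.152 (adjusted p = 0.0213), was lost without ATP11A/C KD 1 or CDC50A KD 1 or 2 (adjusted p up to 0.0813). Without ATP11A/C KD 4 the calls of Tpp1 (adjusted p = 0.0519) and Atp6v1b2 (adjusted p = 0.0620) were lost, the second also with no filter (adjusted p = 0.104). Gla, Cd63, Npc2 and Grn, among the most lowered genes of both groups, were not called apart, with 95% intervals of -0.08 to 0.11, -0.05 to 0.15, -0.02 to 0.15 and -0.04 to 0.14.

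**Figure D5:**
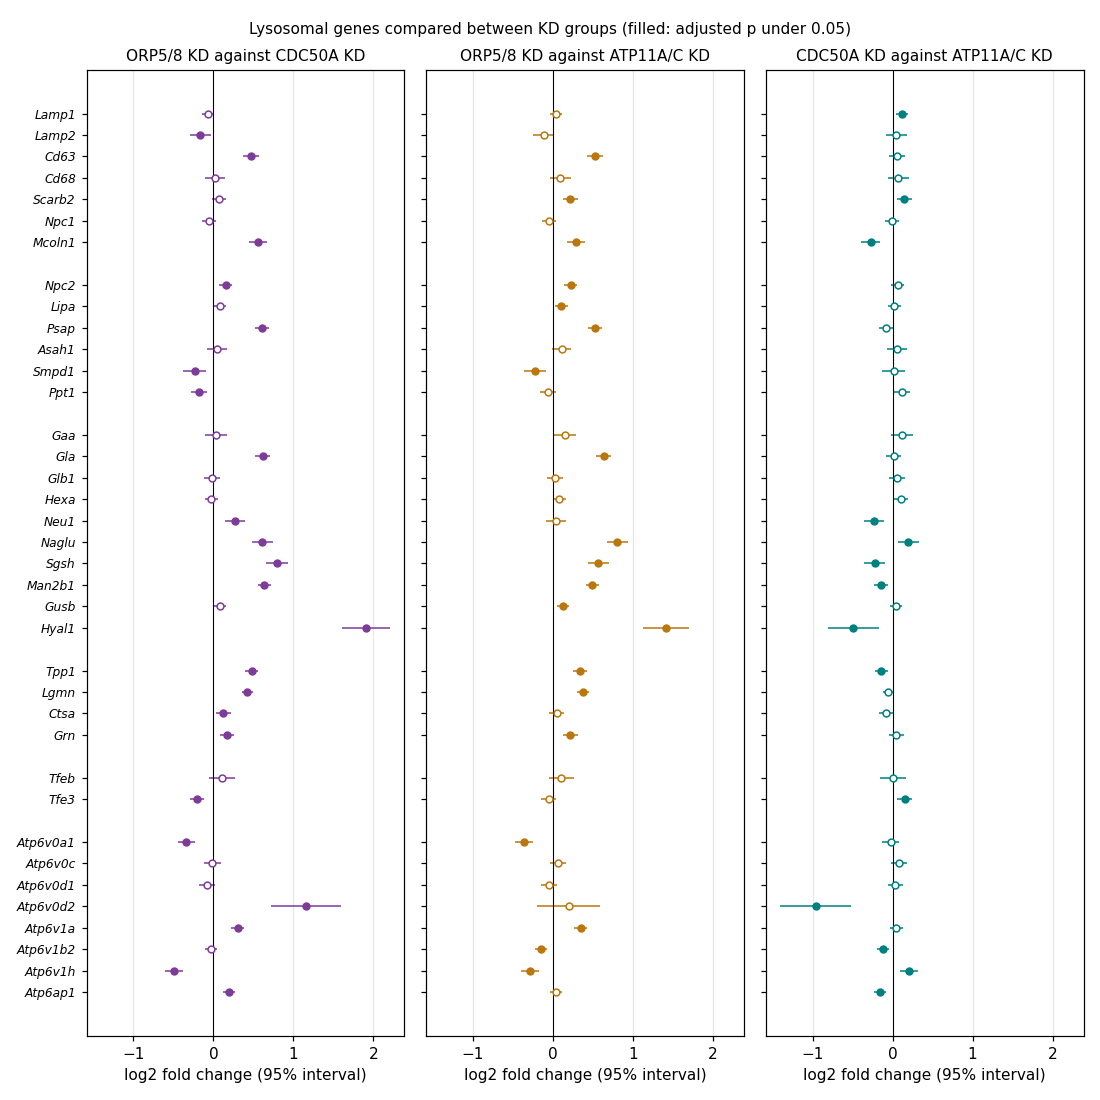
Log2 difference of each of the 37 genes between KD groups (points are estimates, lines 95% intervals, filled points have an adjusted p under 0.05): ORP5/8 KD against CDC50A KD, ORP5/8 KD against ATP11A/C KD and CDC50A KD against ATP11A/C KD, on 1 shared axis. In the first and the second panel most filled points lie right of 0, led by Hyal1 (1.91 and 1.41), and in the third most points are open and near 0.

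The genes whose promoter windows hold CACGTG can be set beside those without it. For ORP5/8 KD against Parental, 4 of the 11 with a match were higher and 4 lower, with a median log2 fold change of -0.00, and of the 21 without a match 4 were higher and 13 lower, with a median of -0.25. In ATP11A/C KD, 1 and 8 of the 11 were higher and lower, and 1 and 16 of the 21. The medians there were -0.18 with a match and -0.31 without. In CDC50A KD, it was 1 and 7 of the 11, and 1 and 15 of the 21, with medians of -0.23 and -0.26. In ORP5/8 KD, 22.0% of all tested genes were higher and 24.3% lower. The shares were 17.4% and 20.2% in ATP11A/C KD, and 24.3% and 26.1% in CDC50A KD. Naglu, Gaa, Sgsh and Lgmn were the matched genes that were higher in ORP5/8 KD, and Ctsa, Atp6v0d1, Atp6v1a and Gla the matched genes that were lower. Against CDC50A KD, ORP5/8 KD had 7 of the 11 matched genes higher, with a median log2 difference of 0.30, and 9 of the 21 unmatched genes higher and 5 lower, with a median of 0.09. Of all tested genes, 27.5% were higher and 29.4% lower in that comparison. The genes carrying these letters therefore included both risers and fallers. No test was made of the difference between matched and unmatched genes.

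Per length, the levels of the 37 genes in Parental ran from 2.07 CPM per kb for Atp6v0d2 to 746 CPM per kb for Cd68. Psap followed Cd68 with 448 ± 20.1 CPM per kb for ORP5/8 KD, 311 ± 13.8 for ATP11A/C KD and 294 ± 5.15 for CDC50A KD, against 385 ± 12.0 in Parental. Grn stood at 264 ± 10.8, 227 ± 11.7 and 235 ± 6.10 CPM per kb in the KD groups in that order, against 353 ± 14.8 in Parental. Lamp1 stood at 340.5 ± 3.73, 331 ± 9.87 and 358 ± 11.5 CPM per kb, against 341 ± 8.21 in Parental. In Parental, the gap between Grn and Lamp1 was smaller than the SD of Grn but larger than that of Lamp1. In both flippase KD groups Lamp1 lay above Psap and Grn, whose levels were lower than in Parental.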

How the data were processed

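RNA was measured in 16 libraries of RAW264.7 cells, 4 in each of 4 groups. Per the labels' protocols, 500 ng of RNA gave stranded, polyA-selected libraries, read as 100-base pairs. The authors deposited RSEM expected counts per gene, not scaled by depth or length; per the submitters' processing notes, Trim Galore 0.5.0, STAR 2.7.5a, Picard and RSEM were used with mm10. The deposited counts are labelled STRANDED, but the gene annotation and the strand setting of the counting are not given in the sources used here. Counts were rounded to whole numbers, since 4.63% of all values, and 15.9% of the nonzero ones, carried decimals.

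Genes were filtered with filterByExpr (minimum count 10), scaled by TMM, and fitted with edgeR 4.0.16 (quasi-likelihood, R 4.3.3) on all 16 libraries with 1 term a group. P-values were Benjamini-Hochberg adjusted over the 13107 genes within each comparison, with calls made below 0.05. The biological coefficient of variation was 6.86%. Values after ± are SE for log2 fold changes and SD over 4 libraries for levels, which are CPM, TMM-scaled. Levels per length used merged exons of GENCODE M21 (GRCm38), whose IDs matched all 37 genes. Promoter windows are RefSeq's. The fit was tested on simulated data first.

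The 37 genes and the other lists were chosen with earlier results of these data known. A gene of the 37 is given in every library if called with a log2 fold change of at least 0.5 in size against Parental in a KD group, and so are Tfeb, Tfe3, Lamp1, Lamp2, Atp6v0d1 and Atp6v0d2. From each other list, the 3 genes with the smallest adjusted p per KD group are named. Targeted genes serve as a check of the labels. Some genes that these rules name are not reported here. Alternatives within edgeR were DESeq2-type size factors, upper-quartile scaling, other filters, a replicate block, the compared groups alone, and leaving out each library. The Wald test of DESeq2 1.42.0 was another.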

Additional observations from a re-analysis of the deposited data

Results flagged for a closer look

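Of 148 sets of 4 libraries (37 genes in 4 groups), 9 had a library that stood apart from the other 3 by Dixon's criterion, close to the 1 in 20 that chance gives. In ORP5/8 KD, library 4 was highest for Tpp1, at 233 CPM with the others at 219 to 221 CPM, and library 1 was lowest for Atp6v0c, at 460.1 CPM with the others at 496 to 502 CPM. In ATP11A/C KD, library 1 was highest for Hexa, at 204 CPM with the others at 183 to 185 CPM, and for Ctsa, at 804 CPM with the others at 719 to 731 CPM. Library 2 of ATP11A/C KD was lowest for Atp6ap1, at 198 CPM with the others at 207 to 208 CPM. In CDC50A KD, library 2 was lowest for Mcoln1, at 26.0 CPM with the others at 27.8 to 28.1 CPM. In Parental, library 1 was highest for Sgsh, at 28.7 CPM with the others at 27.3 to 27.5 CPM, and lowest for Atp6v1b2, at 269 CPM with the others at 278 to 279 CPM. Parental 4 was highest for Hyal1, at 19.7 CPM with the others at 15.3 to 15.9 CPM.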

How the results depend on the processing

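Of the 88 calls of the 37 genes against Parental, 79 held in all 15 alternative settings, and of the 57 calls between KD groups 44 did. No called gene changed direction. Among the 37 genes, the number higher in ATP11A/C KD than in Parental was 2, and 1 with no filter on low counts, 1 with the 1 CPM filter and 1 with the compared groups alone. It ranged from 1 to 5 when a library was left out, with 5 without ATP11A/C KD 2. The number higher in CDC50A KD than in Parental was 2, and 4 with the compared groups alone. The number higher in CDC50A KD than in ATP11A/C KD was 5, and 1 with the compared groups alone, and it ranged from 2 to 7 when a library was left out. Over all genes that last number was 1763 and ranged from 1118, without ATP11A/C KD 3, to 1873, and was 1169 without CDC50A KD 3. The cause of these shifts was not tested. Replicate numbers did not pair the libraries: same-numbered libraries deviated with correlations of -0.166 to 0.105. With the replicate number as a block, 2823 genes were higher and 3138 lower in ORP5/8 KD than in Parental, 2211 and 2599 in ATP11A/C KD, and 3122 and 3362 in CDC50A KD.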
